A study of Homo sapiens with 9 samples.

Results

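The genes described here are 8 genes of ether lipid synthesis, *AGPS*, *GNPAT*, *FAR1*, *FAR2*, *PEX7*, *PEX5*, *CEPT1* and *SELENOI*. They were taken by symbol from 19984 genes of a normalized count table, with earlier results of these data known, and all 8 were found and passed the filter on low counts in every comparison. RNA-seq was performed on LNCaP cells, a human prostate cancer cell line. The deletion clones del-4 and del-56 lacked the promoter and the first and the second exon of the long noncoding RNA gene *EPCART* after CRISPR-Cas9 editing, and the control was a WT clone from the same procedure. Each of the 3 clones was cultured for 48 hours in 3 biological replicates in the same serum-containing medium with no further treatment, giving 9 polyA-selected libraries. Each group was therefore 1 clone. The p-values measure the spread between cultures of a clone, and an effect of the deletion cannot be told apart from other differences between the clones. *EPCART* itself was not analysed here.

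Ether lipids are glycerophospholipids in which a fatty alcohol, in place of a fatty acid, is bound to the glycerol backbone, and the plasmalogens are the most abundant of them. Synthesis starts on the inner side of the peroxisomal membrane. There *GNPAT* places an acyl chain on dihydroxyacetone phosphate, and *AGPS*, which is found in a complex with *GNPAT*, exchanges that chain for a fatty alcohol and so forms the ether bond. *FAR1* and *FAR2* reduce fatty acyl-CoA to the alcohol, and *PEX7* and *PEX5* are the receptors that carry enzymes into the peroxisome. *CEPT1* and *SELENOI* attach the ethanolamine or choline head group. Inherited loss of *AGPS*, *GNPAT* or *PEX7* causes rhizomelic chondrodysplasia punctata, a disease of plasmalogen deficiency.

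The main results concern *AGPS* and *GNPAT*, which act in consecutive steps, so their promoters are shown. Both sequences are the 250 bases before the transcription start in RefSeq (GRCh38.p14, plus strand), which held an entry for 8 of 8 genes. The *AGPS* window is chr2:177392523-177392772 and the *GNPAT* window is chr1:231240962-231241211. Capitals mark matches on either strand to the letters searched. These were GGGCGG for a GC box. They were CCAAT for a CCAAT box and CACGTG for an E box.
AGPS: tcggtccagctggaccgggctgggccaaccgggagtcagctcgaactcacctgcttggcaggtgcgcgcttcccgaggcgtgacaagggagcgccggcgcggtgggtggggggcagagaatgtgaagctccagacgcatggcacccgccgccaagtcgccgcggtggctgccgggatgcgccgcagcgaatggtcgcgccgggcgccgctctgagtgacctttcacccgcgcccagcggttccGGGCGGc
GNPAT: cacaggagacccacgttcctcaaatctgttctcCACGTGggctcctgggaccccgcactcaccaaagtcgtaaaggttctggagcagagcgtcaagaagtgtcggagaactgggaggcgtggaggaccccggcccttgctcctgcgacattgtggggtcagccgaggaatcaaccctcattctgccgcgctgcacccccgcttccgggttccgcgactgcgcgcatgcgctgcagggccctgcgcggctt
The *AGPS* window had a GC content of 72.4% and held 1 GC box, 7 bases before the RefSeq start, and no match to the other letters. Both windows end after the GENCODE starts, which are 177392746 for *AGPS* and 231241207 for *GNPAT*. The GC box of *AGPS* therefore lies within the gene as GENCODE places it. The *GNPAT* window, with 64.0% GC, held no GC box and no CCAAT box but 1 E box 217 bases before the start. Among 35116 windows of this length, 42.6% held a GC box, 32% a CCAAT box and 6.34% an E box. A match describes the sequence and does not show that a factor binds there.

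The libraries held between 91074556 and 118877134 reads on genes, and in 83.8% of the values from 1 to 20 the recovered read count was even, as when both mates of a pair are counted. Summed over 7 luminal prostate markers, *KLK3* among them, normalized counts were 249924 to 270041 for WT, 266115 to 275760.1 for del-4 and 274744 to 284725 for del-56. The 12 markers of other cell types had sums of 1556 to 1619 for WT, 1691 to 2076 for del-4 and 1852 to 2115 for del-56, so both deletion clones were above WT. Most of each sum came from *COL1A1*, with means of 991, 1253 and 1258 for WT, del-4 and del-56, and from *ACTA2*, with 454, 550 and 662. The stromal marker *COL3A1* went the other way, at 90.1, 61.2 and 51.0, and passed as lower in del-56 (adjusted p = 0.029) but not in del-4 (adjusted p = 0.094). Of these 12 markers, 8 had at most 20 reads in each of the 9 libraries, and the endothelial marker *CDH5* was at 0 in all of them. The part of these markers in the results was not tested. In bulk libraries, fewer cells with a transcript and less of it per cell cannot be told apart.

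*AGPS*, the enzyme that forms the ether bond, was higher in both deletion clones than in WT, and higher in del-4 than in del-56. *GNPAT*, the enzyme of the step before it, was lower in both clones, by 37.0% in del-4 and 40.0% in del-56. *FAR2* and *SELENOI* were also lower in both, and *CEPT1* was higher in both. *PEX5* was higher in del-56 only, a difference between the clones that passed its own test. *FAR1* passed the test in no comparison.

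**Figure D1:**
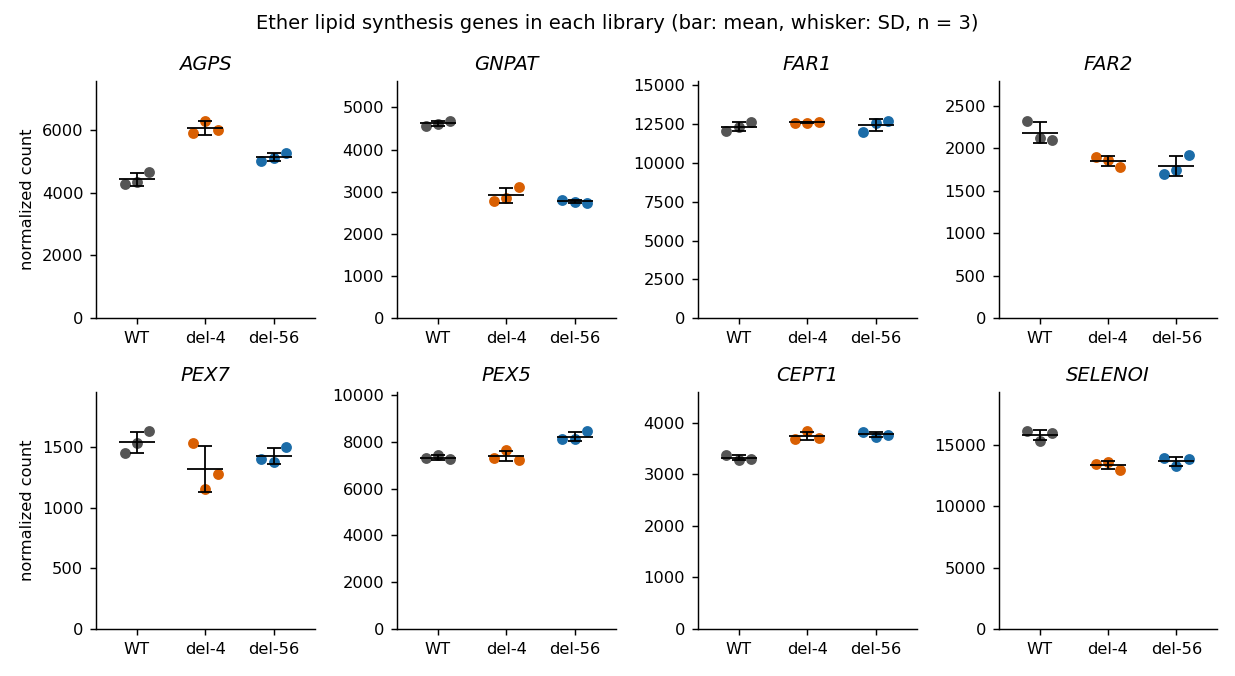
Normalized counts (vertical axes, each from 0) of the 8 genes in the 3 WT, 3 del-4 and 3 del-56 libraries, with the mean (bar) and SD (whisker) of each clone. *AGPS* stands in 3 separate levels with del-4 highest, whereas *GNPAT* has both deletion clones between 2742 and 3110 and WT above 4559.

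The values of *AGPS* (chromosome 2, 177392746 to 177567024, GRCh38, plus strand) were 4284, 4335 and 4659 normalized counts in WT. The del-4 libraries had 5899, 6297 and 5986.5, and those of del-56 5022, 5110.5 and 5277. The 3 clones did not overlap. Means were 4426 ± 203 for WT, 6061 ± 209 for del-4 and 5136 ± 130 for del-56 (SD, n = 3). Throughout, an error beside a level is the SD of 3 libraries, and an error beside a log2 fold change is its SE. The log2 fold change against WT was 0.45 ± 0.045 (SE) in del-4, an increase of 37.0%, with an adjusted p of 2.3e-07 (limma, Benjamini-Hochberg over all genes tested). In del-56 it was 0.22 ± 0.046, an increase of 16.1%, with an adjusted p of 0.0014. In size, the change was above that of 76.0% of all genes tested for del-4 and 53.5% for del-56. The comparison of del-56 with del-4 gave -0.24 ± 0.043 (95% interval -0.33 to -0.15, adjusted p = 6.0e-04). *AGPS* passed the test under each alternative on adjusted p in all 3 comparisons.

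*GNPAT* (chromosome 1, 231241207 to 231277973, plus strand) had 4559, 4613 and 4687 normalized counts in WT. In del-4 it had 2782, 2849 and 3110, and in del-56 2813, 2762 and 2742. Every deletion library lay below every WT library, and the deletion clones overlapped each other. Means were 4620 ± 64.0 for WT, 2913 ± 173 for del-4 and 2772 ± 36.6 for del-56. *GNPAT* fell by 0.67 ± 0.049 on the log2 scale in del-4 (adjusted p = 5.1e-09), and the fall in del-56 was 0.74 ± 0.044 (adjusted p = 2.7e-09). These falls were 37.0% and 40.0%, and their size was above that of 83.7% and 85.2% of all genes tested. Between the clones the difference of -0.070 did not pass (95% interval -0.18 to 0.043, adjusted p = 0.41).

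The ratio of *AGPS* to *GNPAT* reads within a library does not depend on how libraries are scaled. It was chosen after the values were seen and is given without a test. WT libraries had 0.940, 0.940 and 0.994 *AGPS* reads per *GNPAT* read, close to 1. The ratio was 2.12, 2.21 and 1.93 for del-4 and 1.79, 1.85 and 1.93 for del-56. Mean ratios were 0.958 ± 0.031 for WT, 2.08 ± 0.15 for del-4 and 1.85 ± 0.070 for del-56, 2.18-fold and 1.94-fold the WT mean. Because the exons of *AGPS* are longer, this ratio of reads is not a ratio of transcripts.

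The fatty acyl-CoA reductases differed from each other. *FAR1*, the broadly expressed form, had 12088, 12300.2 and 12643 normalized counts in WT and 12569, 12588 and 12674 in del-4. The libraries of del-56 had 12011, 12570.3 and 12735. The clones overlapped, with differences from WT of 0.031 in del-4 (95% interval -0.041 to 0.103, adjusted p = 0.51) and 0.011 in del-56 (-0.070 to 0.091, adjusted p = 0.85). *FAR2* had 2324, 2120.5 and 2095.5 in WT and 1899, 1865.5 and 1781 in del-4. The libraries of del-56 had 1694.5, 1747 and 1918. All 6 deletion libraries lay below the 3 WT libraries. *FAR2* fell by 0.24 ± 0.059 in del-4 (adjusted p = 0.0034), and the fall in del-56 was 0.29 ± 0.065 (adjusted p = 0.0022). The annotation holds 1 pseudogene of *FAR1* and 4 of *FAR2*, so the reads given to these genes are uncertain.

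*PEX7* binds the second type of peroxisomal targeting signal, which *AGPS* carries, and enters the peroxisome together with *PEX5*, the receptor for the first type. *PEX7* had 1455, 1536 and 1632 normalized counts in WT and 1531, 1151 and 1282 in del-4. The libraries of del-56 had 1401, 1378.5 and 1505. The del-4 libraries spread most and 1 of them lay within the WT range. The log2 fold change was -0.23 ± 0.087 in del-4, which passed narrowly (adjusted p = 0.043), and -0.11 ± 0.068 in del-56, which did not (adjusted p = 0.23). The del-4 call did not hold without del-4 replicate 2 (-0.14, adjusted p = 0.23) or replicate 3 (-0.21, adjusted p = 0.14), or without WT replicate 2 (-0.23, adjusted p = 0.10) or replicate 3 (-0.19, adjusted p = 0.20). It was also lost with no filter on low counts and with quantile normalization (adjusted p = 0.061 in each).

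*PEX5* also imports the larger group of peroxisomal enzymes with the first type of signal, *GNPAT* included. Its values were 7294, 7431 and 7264 normalized counts in WT and 7306, 7633 and 7240.0 in del-4. The libraries of del-56 had 8106, 8106.5 and 8452. The del-56 libraries stood above all others, while del-4 and WT overlapped. *PEX5* rose by 0.17 ± 0.038 in del-56 (12.1%, adjusted p = 0.0025), against a value of 0.012 in del-4 (95% interval -0.067 to 0.091, adjusted p = 0.83). The clones differed by 0.15 ± 0.040 (adjusted p = 0.010), but not without del-4 replicate 3 (0.14, adjusted p = 0.069) or without del-56 replicate 3 (0.13, adjusted p = 0.067).

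The head group enzymes moved in opposite directions. *CEPT1*, which can use choline or ethanolamine, had 3376.5, 3282 and 3292 normalized counts in WT and 3680.2, 3831 and 3699 in del-4. The libraries of del-56 had 3825, 3721 and 3764. Both deletion clones lay above WT. *CEPT1* rose by 0.17 ± 0.044 in del-4 (adjusted p = 0.0043), and del-56 gave 0.18 ± 0.045 (adjusted p = 0.0035). The del-4 call did not hold after rescaling to the same total (0.10, adjusted p = 0.089). *SELENOI*, a selenoprotein that uses ethanolamine, had 16098, 15319 and 15989 in WT and 13463, 13554 and 12973 in del-4. The libraries of del-56 had 13908, 13251 and 13831. All deletion libraries were below WT. *SELENOI* fell by 0.25 ± 0.036 in del-4 (adjusted p = 2.3e-05), and the fall in del-56 was 0.21 ± 0.038 (adjusted p = 3.2e-04).

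In del-4, 6 of 8 genes passed the test, 2 higher and 4 lower, against 40.7% of all 17401 genes tested (20.5% higher, 20.2% lower). The libraries did not overlap with WT for 2 genes that were higher and 3 that were lower, where 49.5% of all genes did not overlap (24.8% higher, 24.8% lower). In del-56, 6 of 8 passed, 3 higher and 3 lower, against 39.7% of 17481 genes (19.2% higher, 20.5% lower), and the same numbers did not overlap, against 48.7% of all genes (24% higher, 24.8% lower). Between the deletion clones 2 of 8 passed, *AGPS* lower in del-56 and *PEX5* higher, against 19.9% of 17447 genes (9% higher, 10.9% lower). Both also did not overlap, against 34.7% of all genes (17.1% higher, 17.6% lower). The same WT libraries served both comparisons. Higher in both clones were *AGPS* and *CEPT1*, and lower in both were *GNPAT*, *FAR2* and *SELENOI*, where 13.2% and 14% of all genes tested were so. Over the 8 genes the log2 fold changes had medians of -0.11 (del-4) and -0.049 (del-56), beside -0.0028 and -0.0011 over all genes tested. Their median absolute change was 0.23 and 0.20, against 0.19 for all genes in each. Rescaling to the same total moved the share of all calls that were higher from 50.3% to 32.4% in del-4 and, between the deletion clones, from 45.3% to 63.3%. It turned the sign of *FAR1* in all 3 comparisons and of *PEX5* in del-4, none of which had passed. No gene of the 8 went past a log2 fold change of 1 or -1, where 5.82% of all genes in del-4, 5.94% in del-56 and 4.28% between the clones did so with an unadjusted p under 0.05.

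**Figure D2:**
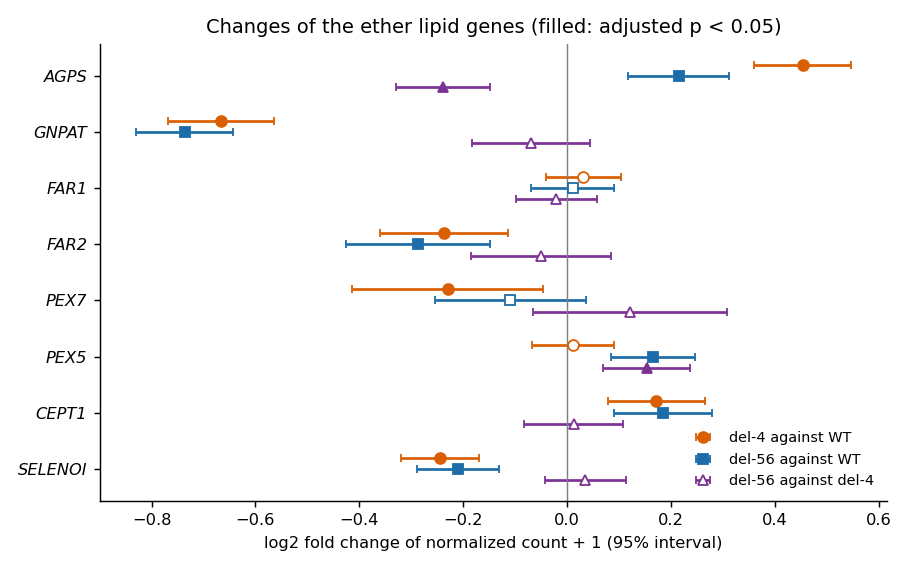
Log2 fold changes of normalized count + 1 (horizontal axis) with 95% intervals for the 8 genes in 3 comparisons, each between clones of 3 libraries. Filled symbols passed an adjusted p of 0.05. *AGPS* lies to the right of 0 in both deletion clones, at 0.45 and 0.22, and *GNPAT* to the left, at -0.67 and -0.74.

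Levels of different genes were compared as normalized counts per kilobase of annotated exons. In WT the order was *SELENOI* (1861), *FAR1* (1609), *GNPAT* (1417), *PEX5* (1336), *PEX7* (452), *CEPT1* (383), *AGPS* (291) and *FAR2* (159), and no neighbours in that order overlapped. *AGPS* thus had the seventh level of the 8, well below the enzyme that supplies its substrate. In del-4 *GNPAT* was at 893 and *AGPS* at 398, between *CEPT1* (432) and *PEX7* (388), and *AGPS* overlapped with *PEX7*. In del-56 *GNPAT* was at 850 and *AGPS* at 337, again seventh, and *FAR1* overlapped with *SELENOI* and *CEPT1* with *PEX7*. In both deletion clones *FAR1* had the highest mean level and *PEX5* was above *GNPAT*, the reverse of WT. The exon length joins all annotated transcripts of a gene, and the lengths over which the authors counted are not known, so levels per kilobase are approximate.

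Each of the 8 genes was set beside the genes around it. *AGPS* lies on chromosome 2, as does *EPCART*. In del-4, *AGPS* was above 1032 of the 1121 other genes tested there, whose log2 fold changes centred on -0.15 (median). In del-56 it was above 963 of 1122, with a median of -0.16. The 17 genes within 2 Mb had medians of -0.056 (del-4) and -0.097 (del-56), and *AGPS* was above 17 and 15 of them. Of these 17 genes, 3 passed as lower and 0 as higher in del-4, and 4 as lower and 1 as higher in del-56. *GNPAT* on chromosome 1 was below 27 of 28 genes within 2 Mb in each clone. Those 28 genes had medians of -0.14 in del-4, with 14 lower and 5 higher, and -0.063 in del-56, with 12 lower and 6 higher, while all of chromosome 1 had medians of 0.11 and 0.12. A nearer span, from -0.54 to 0.19 Mb of *GNPAT*, was chosen after the values were seen and ends where the sign turned in del-4. In del-4 all other tested genes there were below 0, which that choice fixed. The next genes outward in del-4 were at 0.093 (-0.59 Mb) and 0.069 (0.29 Mb). In del-56 all were except those at -0.54 Mb (0.16) and -0.068 Mb (1.37).

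**Figure D3:**
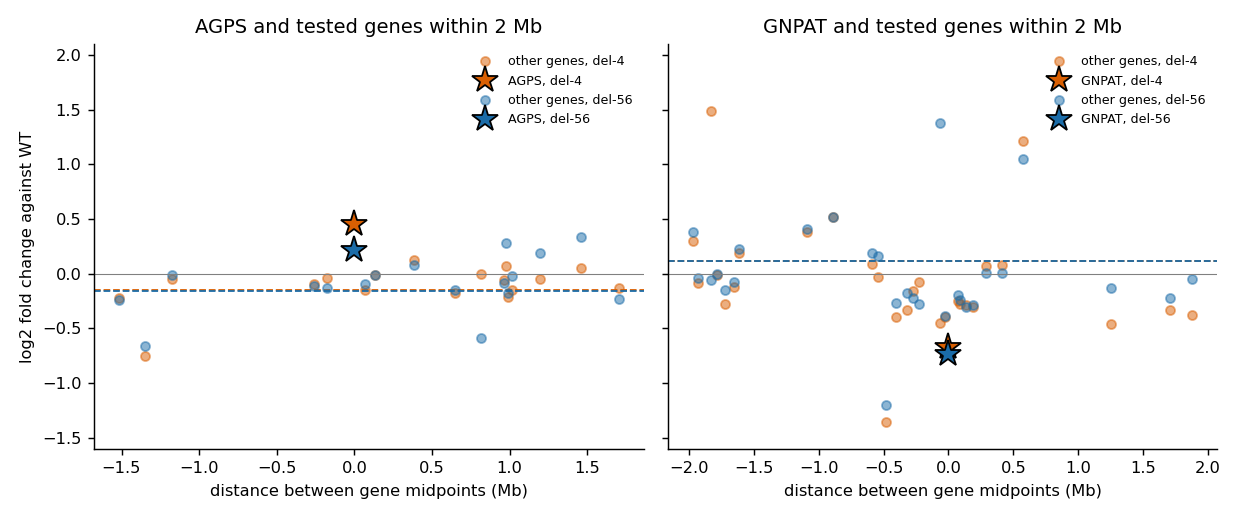
Log2 fold change against WT (vertical axis) of *AGPS* and *GNPAT* (stars) and of the tested genes within 2 Mb (circles), by distance between gene midpoints in Mb, in del-4 and del-56. Dashed lines mark the chromosome medians of -0.15 and -0.16 on the left and 0.11 and 0.12 on the right, and both stars of *AGPS* lie above 0 where most neighbours do not.

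The changes of *CEPT1* and *SELENOI* were like those of their neighbours. Within 2 Mb of *CEPT1*, the median over 55 genes was 0.27 (del-4) and 0.29 (del-56), 27 of them passed as higher in each clone, and *CEPT1* was below 36 of the 55. Around *SELENOI*, the median was -0.18 over 57 genes (del-4) and -0.22 over 58 (del-56), and 34 passed as lower in each. Over all genes tested, 20.5% (del-4) and 19.2% (del-56) passed as higher, and 20.2% and 20.5% as lower. *FAR2* had neighbours with medians of -0.089 and -0.15 (16 genes), *PEX7* with -0.24 and -0.093 (20 genes), *FAR1* with 0.16 and 0.15 (16 genes) and *PEX5* with 0.058 (66 genes) and 0.024 (69 genes). Whether the chromosomal surroundings had a part in any of these changes was not tested.

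Several of the genes share exon bases with a gene on the other strand, and the counting was not stated to use strand. *AGPS* shares 220 bases (1.45% of its exon bases) with *TTC30B*, which had log2 fold changes of -0.15 (del-4) and -0.097 (del-56), and 11 bases with *NFE2L2*. *SELENOI* shares 487 bases (5.74%) with *ADGRF3*, *CEPT1* 414 (4.78%) with *DRAM2* and *FAR2* 314 (2.29%) with *ERGIC2*. Long noncoding RNA genes on the other strand share 647 (7.47%) and 118 (1.36%) bases with *CEPT1*. With *FAR2* such genes share 651 (4.76%) and 448 (3.27%) bases, and with *PEX5* 65 (1.18%). Reads on those bases could not be assigned to 1 of the genes.

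Other enzymes of the pathway were described as 4 lists. In each list a gene was counted as higher or lower where it passed the test. The counts of each list stand beside the shares of all genes tested. These were 20.5% higher and 20.2% lower in del-4, and 19.2% higher and 20.5% lower in del-56. Of 11 other ether lipid enzymes, 4 were higher and 2 lower in del-4 and 2 were higher and 1 lower in del-56, with median log2 fold changes of 0.18 and 0.016. In a joint fit of all 9 libraries, 5 passed in del-56. *DHRS7B*, the reductase that takes over the product of *AGPS*, fell from 2748 ± 159 normalized counts in WT to 2163 ± 121 in del-4 and 2263 ± 52.7 in del-56 (-0.34 and -0.28, adjusted p = 1.2e-04 and 8.8e-04). *PLPP2*, a lipid phosphate phosphatase, rose from 3592 ± 169 to 5285 ± 104 and 4391 ± 254 (0.56 and 0.29, adjusted p = 2.0e-08 and 3.8e-04). Like *AGPS*, *PLPP2* was higher in del-4 than in del-56 (-0.27 ± 0.048, adjusted p = 5.2e-04). *PEDS1*, the desaturase that turns an ether lipid into a plasmalogen, was at -0.033 (adjusted p = 0.56) for del-4, with 0.012 (adjusted p = 0.83) for del-56.

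Of 8 genes of the ethanolamine and choline branch, 4 were higher in each clone, with 2 lower in del-4 and 1 in del-56, and medians of 0.12 and 0.20. *CHPT1*, the choline phosphotransferase, rose from 20559 ± 231 normalized counts in WT to 26497 ± 830 in del-4 and 28630 ± 622 in del-56 (0.37 and 0.48, adjusted p = 1.6e-07 and 3.2e-08). *ETNK2*, an ethanolamine kinase, had 201 ± 50.4, 288 ± 22.5 and 322 ± 36.9 (0.55 and 0.70, adjusted p = 0.023 and 0.0069). Its del-4 call did not hold without del-4 replicate 2 (0.53, adjusted p = 0.066), del-4 replicate 3 (0.50, adjusted p = 0.097) or WT replicate 2 (0.32, adjusted p = 0.14).

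Peroxins are the proteins that build the peroxisome and its import machinery. Of 14 other peroxins, 7 passed as lower and 2 as higher in del-4, and 6 as lower and 1 as higher in del-56. Medians were -0.11 and -0.030. In both clones 7 passed in the same direction, where 13.2% of all genes tested were higher in both and 14% lower in both. Without WT replicate 3, the number that passed in del-56 was 4. *PEX11A*, which takes part in peroxisome division, fell furthest, from 1216 ± 26.2 normalized counts in WT to 434 ± 43.0 in del-4 and 252 ± 22.3 in del-56 (-1.49 and -2.27, adjusted p = 6.8e-10 and 9.9e-11). It was lower in del-56 than in del-4 (-0.78 ± 0.14, adjusted p = 4.6e-04). *PEX2*, a ubiquitin ligase of the import machinery, rose from 4166 ± 40.1 to 5650.2 ± 78.6 and 4590 ± 168 (0.44 and 0.14, adjusted p = 7.6e-08 and 0.019). Its del-56 call did not hold after rescaling to the same total (0.11, adjusted p = 0.070), without del-56 replicate 2 (0.11, adjusted p = 0.099) or without WT replicate 3 (0.13, adjusted p = 0.070). *PEX2* was lower in del-56 than in del-4 (-0.30 ± 0.043, adjusted p = 6.3e-05).

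Of 20 genes of peroxisomal fatty acid oxidation, 11 were higher and 2 lower in del-4 and 9 higher and 3 lower in del-56, with medians of 0.18 and 0.085. *AMACR*, a racemase used as a tissue marker of prostate cancer, rose from 6164 ± 113 normalized counts in WT to 8442 ± 213 in del-4 and 9307 ± 236 in del-56 (0.45 and 0.59, adjusted p = 2.8e-08 and 7.6e-09). *ACOX2*, an oxidase of branched chains and bile acid intermediates, had 76.7 ± 12.4, 125 ± 12.5 and 278 ± 28.2 (0.70 and 1.85, adjusted p = 0.018 and 1.7e-06). Its del-4 call did not hold without del-4 replicate 2 (0.63, adjusted p = 0.068), WT replicate 2 (0.66, adjusted p = 0.055) or WT replicate 3 (0.62, adjusted p = 0.066). The clones differed in *ACOX2* by 1.15 ± 0.17 (adjusted p = 9.8e-05).

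*PHYH* and *ACAA1* share with *AGPS* the targeting signal read by *PEX7*. *PHYH* was 0.22 higher in del-4 (adjusted p = 0.0010), whereas del-56 gave -0.036 (adjusted p = 0.62), and *ACAA1* passed in both, at 0.24 and 0.11. For the other genes of the lists, the background shares given above apply, and no list was tested as a whole.

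**Figure D4:**
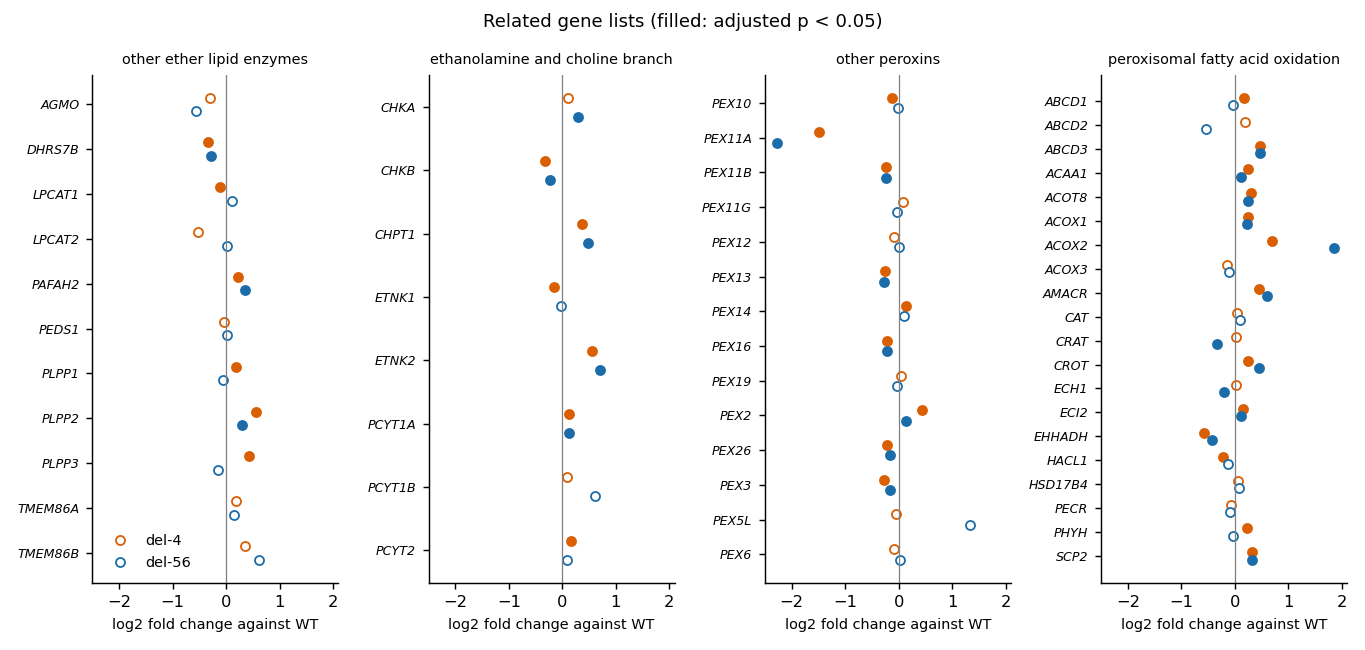
Log2 fold change against WT (horizontal axes) of each gene of the 4 related lists in del-4 (orange) and del-56 (blue), filled where the adjusted p was under 0.05. The filled points past 1 or -1 belong to *PEX11A*, at -1.49 and -2.27, and to *ACOX2*, at 1.85 in del-56.

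The genes whose pattern over the 9 libraries was most like that of *AGPS* were *USP9Y*, *BMPR1A*, *EPS8L2*, *ASAP1* and *FCHSD2*. Their log2 values, centred on their own means, differed from those of *AGPS* by a root mean square of 0.035, 0.046, 0.047, 0.049 and 0.050, among 13085 genes whose mean normalized count reached 100. The measure has only 3 clones behind it, so genes with any difference of this size in the same order are near. No gene of the ether lipid pathway was among the 5, a set too small beside 13085 genes to bear on the pathway.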

How the data were processed

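PolyA-selected, strand-specific libraries of LNCaP clones were sequenced as paired-end reads. Per the labels, the authors used FastQC 0.11.8, Trim Galore 0.6.5, STAR 2.71a, SAMtools 1.8 and bedtools 2.27.1, with GRCh38. The deposited signal values are counts of reads per GENCODE 38 gene that the authors divided by DESeq2 size factors. Multiplied back, 100.0% of values in each library came out as whole reads. Of 19984 genes, 19905 matched GENCODE 44, which gave positions, and 79 did not. Libraries were grouped by clone from their titles. The WT columns of the table also carry a clone number that the labels do not give, and were matched to the WT libraries by the name WT and the replicate number.

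Each pair of clones was fitted alone with limma 3.58.1 (R 4.3.3; lmFit, eBayes with trend) on log2 of the normalized count plus 1, over genes whose mean reached 1. Tests were two-sided, with Benjamini-Hochberg adjustment over all genes tested, and a call needed an adjusted p under 0.05. This scale understates changes of low genes. edgeR 4.0.16 and DESeq2 1.42.0 were run on the recovered reads as alternatives, since the values are normalized. The edgeR test called 3529 genes higher and 3520 lower in del-4, 3418 and 3525 in del-56, and 1605 and 1887 between the deletion clones. Replicates of a clone differed by more than sampling noise (chi-square per gene 5.72 to 20.4). The fit was also run on simulated data. Those reads were drawn independently, with the same spread set for every gene and far fewer changed genes than were called here. That run therefore does not show how the fit performs on these libraries.

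The 8 genes and the related lists were chosen with earlier results of these data known. From each list the text names the pair of genes with the largest mean change among those with a mean of at least 10 that passed in both clones in the same direction, and any gene that passed with a log2 fold change past 1 or -1. *PEDS1*, *PHYH* and *ACAA1*, genes overlapping the 8, and the ratio of *AGPS* to *GNPAT* were chosen after values were seen. Some items are not reported here and were left out of the lists.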

Additional observations from a re-analysis of the deposited data

Results flagged for a closer look

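Effects of the deletion clones differed for *AGPS* and *PEX5*, by the direct comparison of del-56 with del-4 in limma with Benjamini-Hochberg adjustment. Of all genes tested, 19.9% passed in that comparison and 34.7% did not overlap. *AGPS* was -0.24 on the log2 scale in del-56 relative to del-4 (adjusted p = 6.0e-04), and all 3 del-56 libraries were below all 3 del-4 libraries. *PEX5* was 0.15 in del-56 relative to del-4 (adjusted p = 0.010), with all 3 del-56 libraries above, and its call did not hold without del-4 replicate 3 or del-56 replicate 3.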

How the results depend on the processing

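The number of the 8 genes that passed was 5 to 6 in del-4, 6 in del-56 and 2 between the deletion clones under other pseudocounts, filters, scalings, a joint fit, edgeR and DESeq2. Leaving out 1 library gave 5 to 6, 6, and 1 to 2. Where a log2 fold change past 1 was also required with the unadjusted p under 0.05, the number was 0 in each of the 3 comparisons, by limma, edgeR and DESeq2 alike, although 6, 6 and 2 had an unadjusted p under 0.05. The change of *AGPS* passed in all of the settings on adjusted p, and leaving out 1 library gave 0.43 to 0.49 in del-4, 0.19 to 0.25 in del-56 and -0.26 to -0.21 between them. Signs turned only for values that had not passed. *FAR1* became -0.038, -0.018 and 0.020 in del-4, del-56 and del-56 against del-4, and *PEX5* -0.057 in del-4, after rescaling to the same total. Leaving out 1 library gave *PEX5* -0.011 to 0.027 in del-4 (below 0 without del-4 replicate 2). It gave *FAR1* -0.0064 to 0.036 in del-56 (below 0 without WT replicate 1 and without the third del-56 library) and -0.037 to 0.0048 between the clones (above 0 without del-56 replicate 1). *FAR1* was at -0.0041 without WT replicate 1. Other ether lipid enzymes that passed in del-56 were 5 instead of 3 in a joint fit of all 9 libraries.

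Whether replicate numbers pair the libraries was not settled. Correlations of same-numbered deviations from the group means ran from -0.053 to 0.063, with 0 of 9 above 0.1. Those of differently numbered libraries ran from -0.054 to 0.044. Same-numbered values were 0.029 to 0.063 between del-4 and del-56 and 0.023 to 0.051 between WT and del-4. Between WT and del-56 they were all below 0. Such small values cannot exclude a pairing. With the replicate number as a block, 6, 6 and 2 of the 8 genes passed, and calls over all genes were 3543 higher and 3495 lower in del-4, 2868 and 3167 in del-56, and 1521 and 1872 between the clones. Depth did not limit the 8 genes, whose lowest value in any library was 1151 normalized counts (*PEX7* in del-4).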
